A study of Homo sapiens with 20 samples.

Results

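Transcripts of 9 genes of homologous recombination and of the Fanconi anaemia pathway were followed in MDA-MB-468 cells given epidermal growth factor (EGF). The genes were BRCA1, BRCA2, RAD51AP1, XRCC2, FANCD2, FANCI, BRIP1, BLM and EXO1. They were taken by gene name from the 60271 genes of the count table, and all 9 were among the 16522 genes that had enough counts to be tested. MDA-MB-468 is an established triple-negative breast cancer line in which EGFR, the receptor of EGF, is amplified. The 20 RNA-seq libraries came from 1 line in 5 groups of 4 biological replicates. All groups shared the same culture before treatment, with serum starvation for 24 h, and were seeded and harvested together. The control group (CTR) had no EGF. The other groups had 50 ng/mL EGF for 12 h, 24 h, 48 h or 72 h, so that only the time at which EGF was added differed. The p-values below measure the spread between wells of this line.

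Homologous recombination repairs broken or stalled DNA by copying the intact sister chromatid, and it works mainly in S and G2 phase. The broken end is first resected to single-stranded DNA by nucleases such as EXO1. BRCA1 promotes this step, BRCA2 acts on the resected strand before it invades the sister, and helicases such as BLM process the joint molecules. The Fanconi anaemia pathway acts on crosslinks between the strands. Its core complex ubiquitinates FANCD2 and FANCI, which clamp onto the DNA and bring in the nucleases that cut the crosslink out, and recombination then completes the repair. BRCA1 and BRCA2 are best known in breast tissue as genes whose inherited loss predisposes to cancer.

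The libraries held 15611961 to 25856953 counts, with a median of 20398047. No member fell below 94 counts in any library, and the largest count was 2314. EPCAM (138 to 225 CPM, counts scaled to the size of the library), KRT8, KRT18, KRT7 and CDH1 were read in every library, and EGFR stood at 3357 to 12124 CPM. Of these 5 epithelial markers, edgeR called 5 higher than CTR at 12 h, and 3 higher and 1 lower at 24 h. At 48 h 0 were called higher and 2 lower, and at 72 h 3 higher and 2 lower. EGFR was called higher at 12 h, 24 h, 48 h and 72 h, by 1.76, 1.16, 0.69 and 0.76 on the log2 scale. PGR, the progesterone receptor, was at 0 in all 20 libraries. The other receptors of the marker list, ESR1 (1.91 to 6.53 CPM) and ERBB2 (7.79 to 24.6 CPM), were read at a low level in every library. Both were called lower than CTR at 12 h, 24 h and 72 h by edgeR. Of the markers of other cells, COL1A2 was at 0 in 17 libraries, and PTPRC, CD3E and PDGFRB did not pass 0.304, 0.0760 and 0.388 CPM. COL1A1 (5.00 to 14.8 CPM) and CD68 (0.804 to 28.0 CPM), markers of fibroblasts and of macrophages, were read in every library and were called higher than in the control group at all 4 EGF times by edgeR. The log2 fold changes of CD68 were 3.80, 3.89, 3.64 and 4.51 at 12 h, 24 h, 48 h and 72 h, and those of COL1A1 were 0.65, 0.82, 0.90 and 1.17. Their part in the results was not tested.

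The stretch just upstream of the start is shown for the members whose upstream sequence held a core motif of the E2F factors, which drive S-phase genes, and for XRCC2, which was the member not called against CTR at any time. The sequences are RefSeq promoters of GRCh38.p14, written 5′ to 3′ on the strand of the gene. Capitals mark GCGGGAA, the reverse complement of the E2F core TTCCCGC. RAD51AP1 is the stretch chr12:4538740-4538889 (plus strand), BLM is chr15:90717196-90717345 (plus strand), BRCA1 is chr17:43125365-43125514 (minus strand, the more downstream of its RefSeq starts) and XRCC2 is chr7:152676142-152676291 (minus strand).
RAD51AP1: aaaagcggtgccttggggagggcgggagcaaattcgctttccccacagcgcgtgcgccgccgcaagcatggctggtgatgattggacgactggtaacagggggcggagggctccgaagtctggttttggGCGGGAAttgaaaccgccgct
BLM: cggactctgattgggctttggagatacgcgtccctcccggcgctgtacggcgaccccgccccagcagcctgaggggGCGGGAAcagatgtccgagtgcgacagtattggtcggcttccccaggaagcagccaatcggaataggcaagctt
BRCA1: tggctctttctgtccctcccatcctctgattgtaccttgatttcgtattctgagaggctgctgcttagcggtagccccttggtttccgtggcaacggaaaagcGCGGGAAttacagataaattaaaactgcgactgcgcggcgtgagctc
XRCC2: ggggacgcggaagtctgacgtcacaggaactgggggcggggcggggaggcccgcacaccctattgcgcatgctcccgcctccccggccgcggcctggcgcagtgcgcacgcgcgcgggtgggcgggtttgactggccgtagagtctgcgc

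A promoter was found for 8 of the 9 members, and FANCI had no entry. Over 250 bases before the start and on both strands, the E2F core TTCCCGC was present in 3 of these 8 members, against 5.52% of 35116 promoters. The core variants TTGGCGC and also TTCGCGC and also TTGCCGC were in none of the 8, against 2.56%, 1.85% and 1.87% of promoters. At least 1 of these E2F cores, TTCCCGC included, was present in 10.9% of promoters. TTCCCGC lay 21 bases before the start of RAD51AP1, 74 bases before that of BLM and 47 bases before that of BRCA1. Like XRCC2, the members BRCA2, FANCD2, BRIP1 and EXO1 held no E2F core, and these were called lower at 12 h. The part of the motif in the members' changes was not tested. CCAAT was present in 4 members (RAD51AP1, BLM, BRCA1 and BRIP1) against 32.0% of promoters. TGACGT, part of the cAMP response element, was present in 4 members (EXO1, FANCD2, XRCC2 and BRCA1) against 7.10%. TTTGAA, the core of the element of many late cell cycle genes, was present in 1 member, BRIP1, against 13.3%. A member was counted if any of its promoters matched, whereas the shares count single promoters. The 8 members had 10 promoters, of which 3 held TTCCCGC, 4 CCAAT, 5 TGACGT and 1 TTTGAA. These matches describe the letters in the windows only.

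Most of the 9 transcripts were lower after 12 h, stood near or below CTR at 24 h, were close to CTR at 48 h and were lower again at 72 h. At 12 h, 8 members fell and none rose, and XRCC2 did not pass the test. By comparison, 36.5% of all tested genes fell and 32.9% rose at 12 h. At 24 h, 6 members fell and none rose (29.6% of all genes fell and 29.2% rose). At 48 h, 1 member fell and 1 rose, where 21.8% of all genes fell and 24% rose. At 72 h, 7 members fell and none rose (31% of all genes fell and 30.6% rose). The members' median log2 fold change was -0.78, -0.39, 0.00 and -0.58 at 12 h, 24 h, 48 h and 72 h, beside -0.05, -0.01, 0.01 and -0.01 over all tested genes. At 12 h, 24 h and 72 h, 0 members were higher by edgeR, by edgeR at an unadjusted p under 0.05 or by DESeq2. All 4 times were compared with the same 4 control libraries, so the comparisons are not independent of each other. In bulk RNA, fewer cells of a type and less RNA per cell cannot be told apart.

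**Figure D1:**
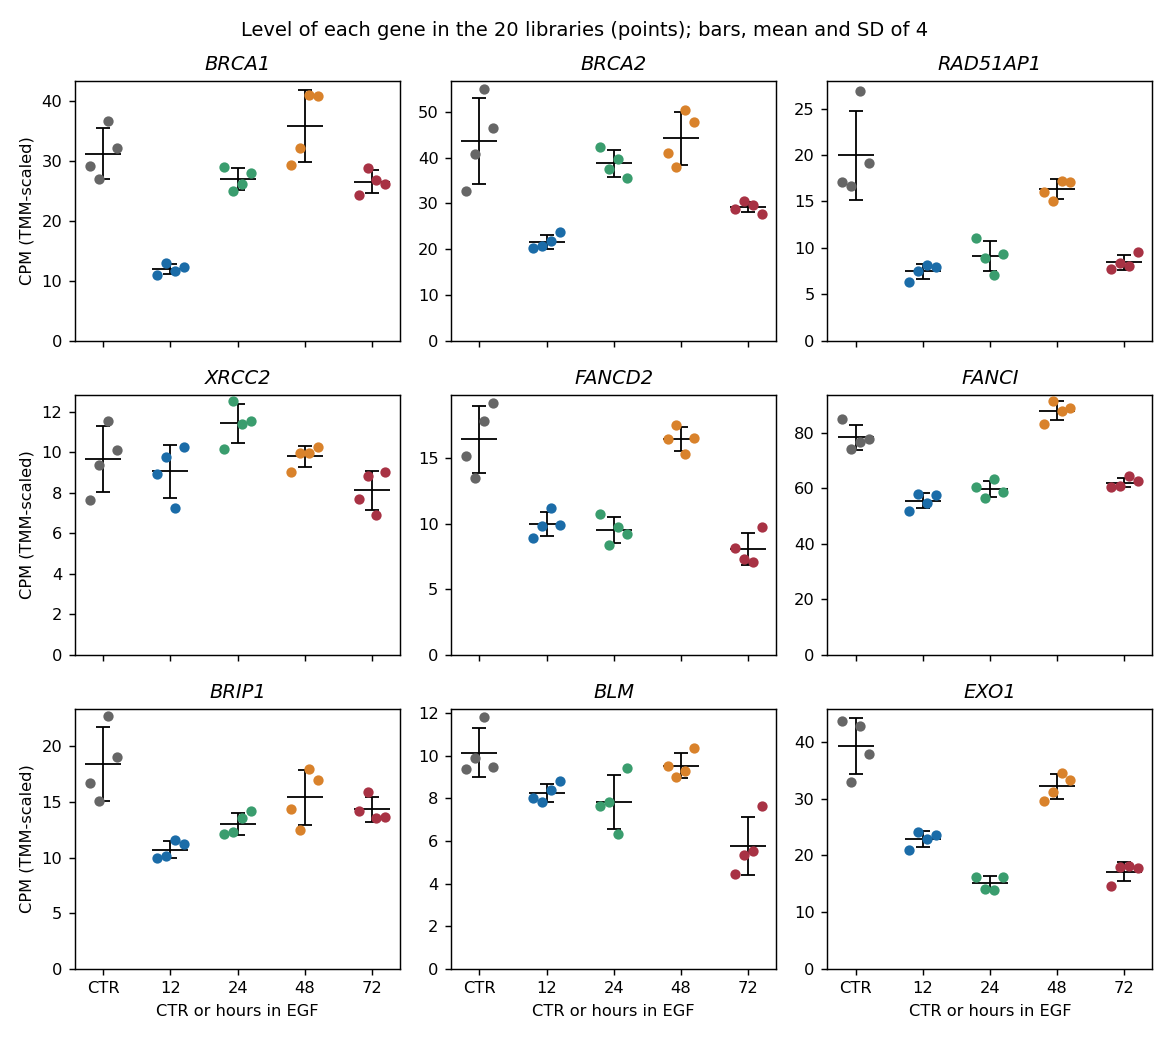
Level of each of the 9 genes in CPM (vertical axis, from 0) in CTR and after 12, 24, 48 and 72 h in EGF (horizontal axis); each point is 1 library, and the bars give the mean and SD of 4. BRCA1 lies between 10.9 and 13.0 CPM at 12 h, below every library of the other groups, whereas XRCC2 stays between 6.92 and 12.5 CPM in all 20 libraries.

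BRCA1 fell at 12 h and was back near CTR at 24 h. BRCA1 is a ubiquitin ligase subunit that promotes end resection and recruits PALB2. Its gene lies on the minus strand of chromosome 17 (chr17:43044295-43170245, GRCh38). The 4 CTR libraries held 29.03, 26.9, 36.6 and 32.1 CPM. The 12 h libraries held 10.9, 13.0, 11.7 and 12.3 CPM, all below every CTR library, and BRCA1 was 2.60-fold lower (log2 fold change -1.38 ± 0.11 SE, adjusted p = 1.13e-10 in edgeR's quasi-likelihood test). At 24 h the libraries were back at 28.9, 24.9, 26.2 and 27.9 CPM. BRCA1 rose by 1.17 on the log2 scale from 12 h to 24 h (adjusted p = 1.08e-08). At 48 h it stood at 29.3, 32.1, 40.9 and 40.8 CPM and at 72 h at 24.3, 28.8, 26.7 and 26.2 CPM. Against CTR, the 24 h, 48 h and 72 h libraries overlapped the control range. Their log2 differences of -0.21 (adjusted p = 0.0981), 0.20 (adjusted p = 0.116) and -0.23 (adjusted p = 0.0587) did not pass the test. At 24 h and 72 h they did pass where libraries were scaled by their totals (-0.35, adjusted p = 0.0079, and -0.31, adjusted p = 0.0162). Under that scaling the median of all tested genes moved to -0.15 at 24 h and -0.09 at 72 h. The 24 h and 72 h differences also passed without CTR replicate 2 (-0.27, adjusted p = 0.0332, and -0.30, adjusted p = 0.0174). The 48 h level passed as a rise without CTR replicate 3 (0.29, adjusted p = 0.0265) or without EGF 48 h replicate 1 (0.29, adjusted p = 0.029). BRCA1 was higher at 48 h than at 24 h by 0.41 (adjusted p = 0.00247) and lower at 72 h than at 48 h by a log2 difference of -0.44 (adjusted p = 0.00226).

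BRCA2, which acts on resected single-stranded DNA, had the same dip at 12 h and a later fall at 72 h. Its gene is on the plus strand of chromosome 13 (chr13:32315474-32400266). CTR libraries held 32.7, 40.8, 55.0 and 46.4 CPM, the widest spread between controls among the members (SD 9.38 CPM). The 12 h libraries held 20.2, 20.6, 21.8 and 23.7 CPM and did not overlap CTR, a 2.03-fold lower level (log2 -1.02 ± 0.12, adjusted p = 4.57e-08). The level then rose from 12 h to 24 h by 0.84 on the log2 scale (adjusted p = 2.57e-06) to 42.3, 37.6, 39.8 and 35.4 CPM, inside the CTR range. It stayed there at 48 h, with 40.9, 38.0, 50.3 and 47.7 CPM. At 72 h it was 28.9, 30.6, 29.6 and 27.8 CPM, again below every CTR library (log2 -0.58 ± 0.12, adjusted p = 0.000125, and -1.06 with the authors' normalization factor of each gene and library in place of 1 factor a library). At 24 h and 48 h the log2 differences from CTR were -0.17 (adjusted p = 0.193) and 0.02 (adjusted p = 0.915). The 24 h level passed as a fall without CTR replicate 1 (-0.29, adjusted p = 0.0195), the lowest of the controls. Between the EGF groups BRCA2 was lowest at 12 h, higher at 72 h (0.44 on the log2 scale above 12 h, adjusted p = 0.00247) and higher still at 24 h, from which 72 h differed by -0.41 (adjusted p = 0.00699). With the authors' factors per gene and library, 12 h was not the lower of 12 h and 72 h. The log2 fold changes against CTR were then -1.01 at 12 h and -1.06 at 72 h.

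RAD51AP1, a DNA-binding protein that stimulates strand exchange, had the largest log2 fall of the members at 12 h. The gene lies at chr12:4538798-4560048 on the plus strand. CTR libraries held 17.1, 16.6, 26.9 and 19.2 CPM. The EGF libraries held 6.36, 7.46, 8.12 and 7.99 CPM at 12 h, 11.1, 8.93, 7.12 and 9.32 CPM at 24 h, 16.01, 15.0, 17.2 and 17.1 CPM at 48 h, and 7.71, 8.42, 8.04 and 9.52 CPM at 72 h. Every library of 12 h, 24 h and 72 h lay below every CTR and every 48 h library. The log2 fold changes against CTR were -1.42 ± 0.14 (adjusted p = 3.89e-09), -1.13 ± 0.14 (adjusted p = 2.21e-07) and -1.25 ± 0.14 (adjusted p = 3.98e-08) at these 3 times. At 48 h the difference of -0.29 did not pass the test (adjusted p = 0.0757), but it did without CTR replicate 1 (-0.36, adjusted p = 0.0439) or 2 (-0.37, adjusted p = 0.0244). Neither 24 h (adjusted p = 0.0987) nor 72 h (adjusted p = 0.33) was called different from 12 h. The 24 h level did pass as higher than 12 h with library totals (0.43, adjusted p = 0.0159), upper quartiles (0.41, adjusted p = 0.0178) or the 8 libraries alone (0.31, adjusted p = 0.035), and without CTR replicate 3 (adjusted p = 0.0395) or EGF 24 h replicate 3 (adjusted p = 0.0349). In that step the median of all tested genes was 0.18 with library totals and 0.16 with upper quartiles.

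XRCC2, which acts in the strand invasion step, was the member that did not pass the test against CTR at any of the 4 times. Its gene is on chromosome 7 (chr7:152644779-152676165, minus strand). CTR libraries held 7.64, 9.38, 11.5 and 10.1 CPM. The EGF libraries held 8.94, 9.75, 7.24 and 10.3 CPM at 12 h, 10.2, 12.5, 11.4 and 11.6 CPM at 24 h, 9.03, 9.98, 9.95 and 10.2 CPM at 48 h, and 7.71, 8.82, 6.92 and 9.005 CPM at 72 h. At 12 h the log2 difference was -0.09, with a 95% interval from -0.35 to 0.16 (adjusted p = 0.513). With libraries scaled by their totals it was -0.37 (adjusted p = 0.00848), while the median of all tested genes moved to -0.34 under that scaling. The differences at 24 h, 48 h and 72 h were 0.24 (adjusted p = 0.0975), 0.02 (adjusted p = 0.908) and -0.26 (adjusted p = 0.0788). The 24 h level passed as a rise without CTR replicate 3 (0.34, adjusted p = 0.0245) and the 72 h level as a fall without CTR replicate 1 (-0.35, adjusted p = 0.0169). Between EGF times, XRCC2 was lower at 72 h than at 24 h, by a log2 difference of -0.50 (adjusted p = 0.00277), and 0.33 higher at 24 h than at 12 h (adjusted p = 0.0268). The latter call was lost without EGF 12 h replicate 1 (adjusted p = 0.057) or 3 (adjusted p = 0.12) or without EGF 24 h replicate 2 (adjusted p = 0.0862) or 4 (adjusted p = 0.0536).

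FANCD2 and FANCI form the clamp of the Fanconi pathway. FANCD2 (chr3:10026414-10101930, plus strand) held 15.2, 13.5, 17.8 and 19.2 CPM in CTR. It held 8.94, 9.86, 11.2 and 9.95 CPM at 12 h, 10.7, 8.42, 9.75 and 9.22 CPM at 24 h, 16.5, 17.6, 15.3 and 16.5 CPM at 48 h, and 8.17, 7.34, 7.09 and 9.77 CPM at 72 h. The 12 h, 24 h and 72 h libraries lay below every CTR library, and the 48 h libraries lay within the control range. The log2 fold changes were -0.72 ± 0.12 (adjusted p = 6.33e-06), -0.79 ± 0.12 (adjusted p = 3.22e-06) and -1.03 ± 0.12 (adjusted p = 6.19e-08). The 3 calls were lost with the authors' factors per gene (-0.52, -0.49 and -0.50, with adjusted p = 0.0972, 0.137 and 0.133). FANCD2 rose by 0.79 from 24 h to 48 h (adjusted p = 5.7e-06) and fell by a log2 difference of -1.03 from 48 h to 72 h (adjusted p = 3.08e-07). Its 72 h level was also below that of 12 h (-0.31, adjusted p = 0.0294). In GENCODE 29, FANCD2OS on the opposite strand shares 3.12% of its exon bases. Whether the counting used strand is not given in the sources used here.

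FANCI (chr15:89243949-89317261, plus strand) was the most highly read member. It was lowest at 12 h, and its 72 h level was above that of 12 h (0.16, adjusted p = 0.025). CTR libraries held 84.8, 74.3, 76.7 and 77.7 CPM. The EGF libraries held 51.9, 57.9, 54.6 and 57.7 CPM at 12 h, 60.5, 56.6, 63.3 and 58.6 CPM at 24 h, 83.3, 91.6, 87.9 and 88.8 CPM at 48 h, and 60.4, 60.9, 64.3 and 62.6 CPM at 72 h. The 12 h, 24 h and 72 h libraries were below every CTR library, and 3 of the 4 libraries of 48 h were above all of them. The log2 fold changes were -0.50 ± 0.06 at 12 h (adjusted p = 1.3e-07), -0.39 ± 0.06 at 24 h (adjusted p = 6.95e-06), 0.17 ± 0.06 at 48 h (adjusted p = 0.0277) and -0.34 ± 0.06 at 72 h (adjusted p = 4.27e-05). The rise at 48 h was the only call of a member above CTR. It was lost when CTR replicate 2, 3 or 4, or EGF 48 h replicate 2 or 4, was left out (adjusted p = 0.0746, 0.058, 0.0595, 0.0693 and 0.056), and in a fit of the 8 libraries alone (adjusted p = 0.131). With the authors' factors per gene, the fall at 12 h was -1.14 (adjusted p = 0.0138), and the calls at 24 h (-0.77, adjusted p = 0.0982), 48 h (0.05, adjusted p = 0.933) and 72 h (-0.36, adjusted p = 0.441) were lost. POLG on the opposite strand shares 5.90% of the exon bases of FANCI.

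BRIP1 (FANCJ, chr17:61681266-61863521, minus strand) is a helicase that binds BRCA1. CTR libraries held 16.7, 15.1, 22.7 and 19.0 CPM. BRIP1 stood at 10.002, 10.1, 11.5 and 11.2 CPM at 12 h, at 12.1, 12.3, 13.6 and 14.2 CPM at 24 h, at 14.4, 12.5, 17.9 and 17.0 CPM at 48 h, and at 14.2, 15.9, 13.6 and 13.6 CPM at 72 h. The 12 h and 24 h groups lay below every CTR library, with log2 fold changes of -0.78 ± 0.12 (adjusted p = 4.4e-06) and -0.50 ± 0.12 (adjusted p = 0.00105). At 48 h the difference of -0.25 did not pass (adjusted p = 0.0864), although it did without CTR replicate 2 (-0.34, adjusted p = 0.0192) or EGF 48 h replicate 3 (-0.33, adjusted p = 0.0332). At 72 h BRIP1 was lower by -0.36 ± 0.12 (adjusted p = 0.0113), a call lost without CTR replicate 3 (-0.24, adjusted p = 0.0698) and with the authors' factors per gene (-0.33, adjusted p = 0.0539). All 4 libraries of 24 h lay above all 4 of 12 h, but the difference of 0.28 just missed the threshold (adjusted p = 0.0579). It passed with library totals (0.42, adjusted p = 0.0057), upper quartiles (adjusted p = 0.00494), a minimum of 10 counts (adjusted p = 0.0284), the 8 libraries alone (adjusted p = 0.00674) or the replicate block (adjusted p = 0.0299), and without CTR replicate 2 or 3 or EGF 48 h replicate 2 (adjusted p = 0.0405, 0.0335 and 0.0412). The step from 24 h to 48 h (0.25, adjusted p = 0.0939) passed with library totals (0.40, adjusted p = 0.00733), upper quartiles (0.31, adjusted p = 0.024) or the authors' factors per gene (0.41, adjusted p = 0.0276), and without EGF 48 h replicate 2 (0.33, adjusted p = 0.0248). With library totals the median of all tested genes was 0.18 from 12 h to 24 h and 0.17 from 24 h to 48 h.

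BLM (chr15:90717327-90816165, plus strand), the RecQ helicase mutated in Bloom syndrome, was lowest at 72 h. CTR libraries held 9.39, 9.92, 11.8 and 9.47 CPM, and the 12 h libraries 8.03, 7.84, 8.40 and 8.80 CPM. The groups did not overlap, but the difference was small (log2 -0.30 ± 0.13, adjusted p = 0.048). This call was lost with DESeq2 (adjusted p = 0.0924) and in the absence of most single libraries, for instance CTR replicate 3 (-0.21, adjusted p = 0.172). At 24 h the level was 7.66, 7.85, 6.35 and 9.42 CPM (log2 -0.37 ± 0.13, adjusted p = 0.0187), a call lost without CTR replicate 3 (-0.29, adjusted p = 0.0747) or EGF 24 h replicate 3 (-0.28, adjusted p = 0.0835). With the authors' factors per gene the falls were larger, -0.57 at 12 h (adjusted p = 0.0214) and -0.88 at 24 h (adjusted p = 0.00131). At 48 h it was 9.53, 8.999, 9.27 and 10.4 CPM, inside or just under the CTR range (log2 -0.09, adjusted p = 0.597, and -0.53, adjusted p = 0.0502, with the factors per gene). At 72 h all 4 libraries, with 4.47, 5.35, 5.53 and 7.66 CPM, lay below CTR (log2 -0.84 ± 0.14, adjusted p = 1.1e-05). The 72 h level was also below that of 12 h (-0.54, adjusted p = 0.00148), 24 h (-0.46, adjusted p = 0.00996) and 48 h (-0.75, adjusted p = 0.00015).

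EXO1 (chr1:241847967-241895148, plus strand), the exonuclease of long-range resection, was the member called lower at all 4 times. CTR libraries held 43.7, 32.9, 42.8 and 37.8 CPM. At 12 h EXO1 held 21.0, 24.1, 22.9 and 23.7 CPM (log2 -0.78 ± 0.09, adjusted p = 8.44e-08). It fell further, to 16.2, 14.0, 13.8 and 16.2 CPM at 24 h (log2 -1.38 ± 0.10, adjusted p = 1.22e-11), 2.60-fold below CTR. EXO1 was thus lower at 24 h than at 12 h by -0.60 (adjusted p = 1.66e-05), where BRCA1 and BRCA2 rose. At 48 h the libraries held 29.5, 31.2, 34.5 and 33.3 CPM, of which 2 were below all CTR libraries (log2 -0.29 ± 0.09, adjusted p = 0.0121). With the authors' factors per gene it was -0.63 (adjusted p = 0.0074). The 48 h call was lost without CTR replicate 1 (-0.23, adjusted p = 0.0516) and in a fit of the 8 libraries alone (adjusted p = 0.0532). At 72 h EXO1 was back at 14.6, 17.9, 18.1 and 17.8 CPM (log2 -1.20 ± 0.09, adjusted p = 1.03e-10). The 24 h and 72 h levels did not differ beyond their spread (0.18, adjusted p = 0.159).

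**Figure D2:**
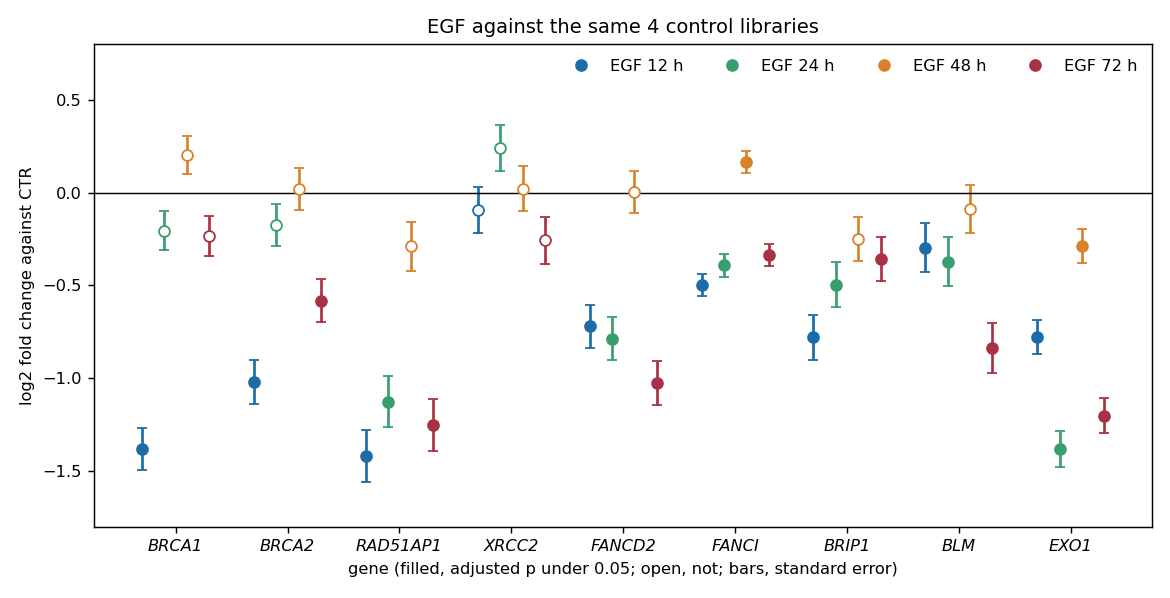
Log2 fold change of each gene against CTR (vertical axis) at 12, 24, 48 and 72 h in EGF (colours), with bars for the standard error; filled points have an adjusted p under 0.05 in edgeR and open points do not. At 12 h the values run from -1.42 for RAD51AP1 to -0.09 for XRCC2, and at 48 h from -0.29 to 0.20.

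The libraries gave the same order. All 4 libraries of 12 h lay below all 4 of CTR for 8 members (31.4% of all tested genes), and the same held for 5 members at 24 h (24% of all genes), 0 at 48 h (15.3%) and 6 at 72 h (25.9%). Of the members, 1 was called lower at all 4 times, 5 at 3 times, 1 at 2 times, 1 at 1 time and 1 at none. The 12 h libraries had scaling factors of their own. The trimmed-mean (TMM) factors were 0.862 to 0.898 at 12 h, against 1.06 to 1.08 in CTR, and scaling by the library totals alone moved the median of all tested genes to -0.34 at 12 h. Under that scaling the 8 members stayed called lower, and XRCC2 joined them.

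Comparing neighbouring EGF times tests how the members moved within the treatment. From 12 h to 24 h, 3 members rose (BRCA1, BRCA2 and XRCC2; 27.9% of all genes rose) and 1 fell (EXO1; 25.9% of all genes fell). From 24 h to 48 h, 5 members rose (BRCA1, RAD51AP1, FANCD2, FANCI and EXO1; 25.9% of all genes rose) and none fell (24.3% of all genes). The largest rises were those of EXO1 (1.09 on the log2 scale, adjusted p = 2.84e-09) and RAD51AP1 (0.84, adjusted p = 2.82e-05). From 48 h to 72 h, 7 members fell and none rose, where 17.9% of all genes fell and 17.9% rose. Only XRCC2 (-0.28, adjusted p = 0.0883) and BRIP1 (-0.11, adjusted p = 0.507) did not pass in that step. The steepest falls between 48 h and 72 h were -1.03 for FANCD2, -0.96 for RAD51AP1 (adjusted p = 9.21e-06) and -0.92 for EXO1 (adjusted p = 7.48e-08). The 72 h libraries lay below all 48 h libraries for 8 members (17.3% of all genes). Over longer steps, 7 members were higher and none lower at 48 h than at 12 h (37.7% and 32.5% of all genes). At 72 h, 4 were higher and 3 lower than at 12 h (35.6% and 32%), and none was higher and 3 lower than at 24 h (20.6% and 19.7%). These longer steps were not rerun with other scalings, filters or left-out libraries. With the authors' factors per gene, the calls of BRCA1 were lost in all 3 steps between neighbouring times (0.59, 0.42 and -0.33, with adjusted p = 0.0588, 0.172 and 0.342). FANCI also lost its calls in the last 2 steps (0.82 and -0.41, adjusted p = 0.0939 and 0.462), and BLM its call from 48 h to 72 h (-0.39, adjusted p = 0.181).

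Per length, FANCI and EXO1 were the most highly read members in CTR. Dividing the mean CTR level by the merged exon length in GENCODE 29 gave 10.1 CPM per kb for FANCI, 9.49 for EXO1 and 7.81 for RAD51AP1. BRCA2 (3.56 CPM per kb), BRCA1 (3.39) and BRIP1 (2.30) followed, and XRCC2 (1.99), FANCD2 (1.96) and BLM (1.52) were lowest. At 72 h EXO1 stood at 4.13 CPM per kb and BLM at 0.862. These lengths merge all annotated transcripts, so they do not describe the transcripts used in these cells.

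The other genes of recombination moved in both directions. Of 34 HR partners tested, 18 fell and 6 rose at 12 h (median log2 fold change -0.38), 14 fell and 6 rose at 24 h (-0.24), 7 fell and none rose at 48 h (-0.05), and 14 fell and 3 rose at 72 h (-0.28). Of all tested genes, 36.5% fell and 32.9% rose at 12 h, and 29.6% fell and 29.2% rose at 24 h. At 48 h, 21.8% of all genes fell and 24% rose, and at 72 h 31% fell and 30.6% rose. SLX1A was in the list but was not tested. BARD1, the partner of BRCA1 in the ligase, held 62.0 ± 2.59 CPM (SD, n = 4) at 12 h against 58.8 ± 9.997 in CTR (log2 difference 0.08, edgeR adjusted p = 0.508). PALB2, which links BRCA1 to BRCA2, was lower at 12 h by -0.30 (adjusted p = 0.00304) and was not called afterwards.

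Among the HR partners the largest falls at 12 h were in EME1, RPA3 and ABRAXAS1. EME1, the partner of the structure-specific nuclease MUS81, was lower by -1.87, but its mean was 1.52 CPM in CTR and 0.406 CPM at 12 h. MUS81 itself had the largest rise of the list, 0.59, with 30.5 ± 0.759 CPM at 12 h against 20.2 ± 3.47 in CTR. RPA3, a subunit of the single-strand binding protein, was lower by -1.35 (197 ± 35.4 CPM in CTR, 77.4 ± 3.80 at 12 h). ABRAXAS1, of the BRCA1-A complex, was lower by -1.07 at 12 h and was called lower at every time. RBBP8 (CtIP), which starts resection with BRCA1, rose by 0.39 at 12 h, 0.66 at 24 h and 0.46 at 72 h, whereas EXO1, which extends it, was lower at these times. RAD54B, a motor protein of strand exchange, rose by 0.41 at 12 h.

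The Fanconi partners moved in both directions. So did all tested genes, of which 36.5% fell and 32.9% rose at 12 h. The shares of all genes were 29.6% and 29.2% at 24 h, 21.8% and 24% at 48 h, and 31% and 30.6% at 72 h. Of 22 tested, 6 rose and 6 fell at 12 h (median 0.01), 6 rose and 5 fell at 24 h (0.00), 3 rose and 6 fell at 48 h (-0.10), and 3 rose and 10 fell at 72 h (-0.22). In the core complex with its associated proteins, 4 of 14 genes rose and 4 fell at 12 h. FANCA, a core complex subunit, rose by 0.64 at 12 h (12.6 ± 1.77 CPM in CTR, 19.5 ± 0.569 at 12 h). ERCC1 rose by 0.65 at 12 h, while ERCC4, the nuclease with which it pairs, was lower by -1.21 at 12 h and higher by 0.56 at 48 h. CENPX rose by 0.50 at 12 h. CENPS, the histone-fold partner of CENPX, was lower by -1.75, a value that is uncertain because the readthrough gene CENPS-CORT shares its exons. FAAP24, which binds DNA with FANCM, was lower by -1.42 at 12 h and by -1.11 at 72 h.

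End joining is the competing route of break repair. For comparison, 36.5% of all tested genes fell and 32.9% rose at 12 h, and 29.6% and 29.2% at 24 h. The shares were 21.8% and 24% at 48 h and 31% and 30.6% at 72 h. Of its 16 genes, 5 rose and 3 fell at 12 h (median 0.03), 3 rose and 7 fell at 24 h (-0.08), none rose and 5 fell at 48 h (-0.19), and 1 rose and 10 fell at 72 h (-0.20). PRKDC, the DNA-dependent protein kinase, rose by 0.59 at 12 h and 0.92 at 24 h. RIF1 (0.45) and SHLD3 (0.62), which oppose resection, rose at 12 h, while TP53BP1 (-0.54), SHLD1 (-0.28) and XRCC4 (-0.60) were lower. Of 14 genes of the damage checkpoint, 2 rose and 8 fell at 12 h (median -0.26), 4 rose and 3 fell at 24 h (0.01), none rose and 3 fell at 48 h (0.02), and 2 rose and 4 fell at 72 h (-0.10). ATM, the kinase that senses breaks, was lower by -1.56 at 12 h (37.4 ± 5.13 CPM in CTR, 12.7 ± 0.604 at 12 h), lower by -0.67 at 24 h and not called at 48 h or 72 h. RAD17 (-0.91) and ETAA1 (-0.67) were lower at 12 h, and HUS1 (0.90) and TOPBP1 (0.30) rose.

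Several recombination genes are read mainly in S and G2 phase, so lists of cell cycle genes were set beside the members. Over all tested genes, 36.5% fell and 32.9% rose at 12 h, and 29.6% and 29.2% at 24 h. At 48 h the shares were 21.8% and 24%, and at 72 h 31% and 30.6%. Of 16 G2/M genes, 12 fell and 1 rose at 12 h (median log2 fold change -0.66), 12 fell and none rose at 24 h (-0.37), 8 fell and none rose at 48 h (-0.21), and all 16 fell at 72 h (-1.20). Of 16 G1/S genes, 4 fell and 7 rose at 12 h (0.16), 1 fell and 9 rose at 24 h (0.23), 7 fell and 2 rose at 48 h (-0.13), and 5 fell and 5 rose at 72 h (-0.10). PCNA differed from CTR by -0.22, 0.02, -0.31 and -0.24 at 12 h, 24 h, 48 h and 72 h, MCM2 by -0.51, -0.14, -0.35 and -0.59, and CCNE2 by 0.11, 0.67, -0.12 and 0.71. MKI67 was not called until 72 h, when it was lower by -1.01. CCNB1 was lower at every time, by -0.88, -0.36, -0.47 and -1.46. At 48 h, 8 of the 16 G2/M genes and 1 of the 9 members were called lower, beside 21.8% of all tested genes. The members' log2 fold changes at 48 h ran from -0.29 to 0.20, a range that holds the G2/M median of -0.21. The part of the cell cycle in the members' changes was not tested.

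Ratios within a library do not depend on a scaling factor shared by all its genes, and 5 of them compared genes whose proteins act together or compete. They do depend on factors set per gene, with which the ratios were not recomputed. The ratio was the CPM of the first gene over that of the second gene, tested at each time against CTR with a two-sided exact permutation test over 4 against 4 libraries. The smallest p this allows is 0.0286, and over the 20 tests 12 reached it, with an adjusted p of 0.0476. BRCA1 left BARD1 behind at 12 h. The BRCA1:BARD1 ratio was 0.525, 0.542, 0.502 and 0.558 in the CTR libraries and 0.187, 0.209, 0.1805 and 0.195 at 12 h. It was 0.499, 0.428, 0.438 and 0.421 at 24 h and, above CTR, 0.700, 0.799, 0.746 and 0.805 at 48 h. These 3 times did not overlap CTR (exact p = 0.0286 each), and 72 h did (exact p = 0.0571).

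BRCA1 fell more than BRIP1 at 12 h (log2 -1.38 against -0.78, and -0.99 against -0.86 with the authors' factors per gene). At 24 h and 48 h BRIP1 was the lower of the pair relative to CTR (-0.50 against -0.21 and -0.25 against 0.20). The mean BRCA1:BRIP1 ratio was 1.70 in CTR, and it moved to 1.12 at 12 h, to 2.07 at 24 h and to 2.32 at 48 h, all apart from CTR (exact p = 0.0286), with 1.85 at 72 h (exact p = 0.0857). BRCA2:PALB2 was 1.78 in CTR and lower at 12 h (1.09) and 72 h (1.08; exact p = 0.0286 for both), and not shown to differ at 24 h (1.52, exact p = 0.171) or 48 h (1.75, exact p = 0.914). BRCA1:TP53BP1 was 1.64 in CTR, 0.924 at 12 h and 1.38 at 72 h (exact p = 0.0286 for both), with 1.91 at 24 h (exact p = 0.171) and 2.19 at 48 h (exact p = 0.114). FANCD2 was lower relative to FANCI at 24 h and 72 h. Their ratio was 0.208 in CTR, 0.159 at 24 h and 0.129 at 72 h (exact p = 0.0286 for both), 0.1796 at 12 h (exact p = 0.171) and 0.188 at 48 h (exact p = 0.343). With the authors' factors per gene the order at 24 h was the other way, with a log2 fold change of -0.49 for FANCD2 and -0.77 for FANCI, and at 72 h the values were -0.50 and -0.36. The count of 12 fell to 0 when CTR replicate 2, 3 or 4 or any library of 12 h, 24 h or 72 h was left out, where the smallest adjusted p was 0.0519 to 0.0635. The 12 tests share the smallest p and the adjusted p of 0.0476, so a few tests leaving it can move all of them over the threshold. The fall to 0 therefore does not describe each ratio by itself.

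**Figure D3:**
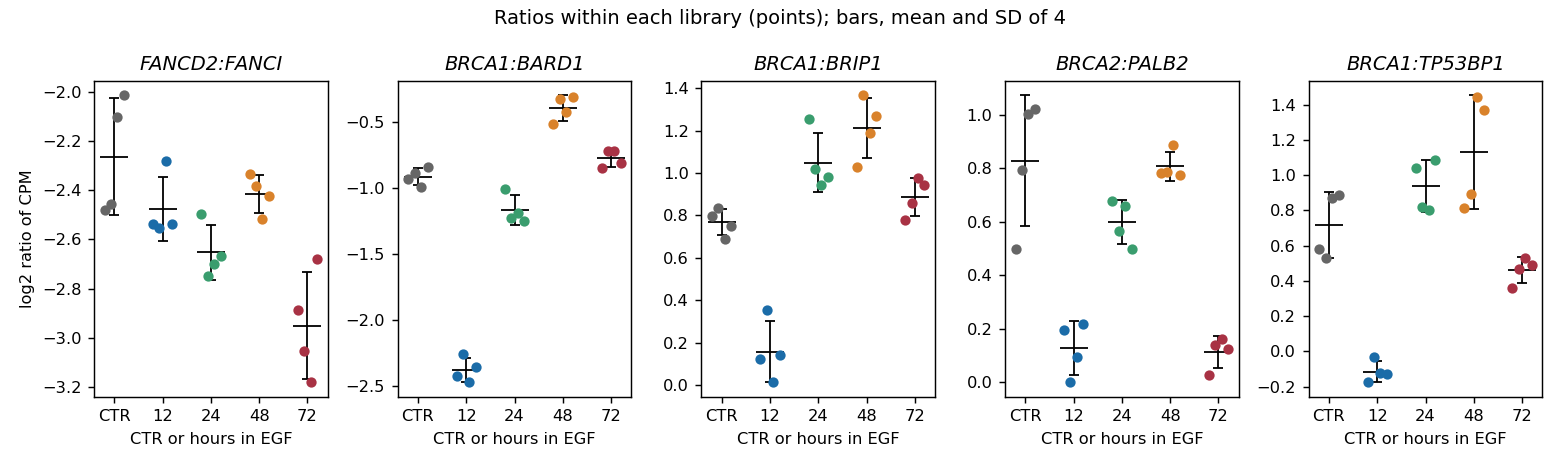
Log2 ratio of the CPM of 2 genes (vertical axis, a scale of its own in each panel) in each library of CTR and of 12, 24, 48 and 72 h in EGF (horizontal axis); points are libraries, and the bars give the mean and SD of 4. BRCA1:BARD1 has a mean log2 ratio of -0.91 in CTR, -2.38 at 12 h and -0.39 at 48 h, with no overlap between these groups.

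The genes whose pattern was most like that of the members were looked up among 13881 tested genes with a mean of at least 1 CPM. Likeness was the root-mean-square difference of the 4 log2 fold changes from the members' median. SHMT1, cytosolic serine hydroxymethyltransferase, was closest at 0.04, with log2 fold changes of -0.74, -0.39, 0.01 and -0.52 at 12 h, 24 h, 48 h and 72 h. DCLK2, AC108676.1, COQ8B, PRPF40B, AC092329.4, DIS3L and ZSWIM5 followed, at 0.06 to 0.09. Among the members themselves, BRCA2 (0.16), BRIP1 (0.18) and FANCI (0.20) lay closest to the median, and EXO1 (0.60) and RAD51AP1 (0.61) lay farthest. BRCA2 would rank at 132 and RAD51AP1 at 6145 in this order.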

How the data were processed

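RNA of 20 cultures was sequenced from Lexogen Corall mRNA libraries as single reads. The authors deposited a table of estimated counts per gene, whole numbers here, with a normalized value per gene and library beside each count. The authors made this score by their gene normalization in SARTools and deposited it without a stated scale. The submitters' processing notes name hg38 and DESeq2, run through SARTools, and the aligner and annotation are not given in the sources used here. The 10 deposited tables hold the same counts, and 1 was read. Columns holding the authors' own fold changes and p-values were not used.

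Counts were scaled by TMM factors to CPM and tested with edgeR 4.0.16 (R 4.3.3; filterByExpr, robust quasi-likelihood fit of all 20 libraries with 1 mean a group, Benjamini-Hochberg over 16522 genes, threshold 0.05). Log2 fold changes used edgeR's prior count of 0.125. Ratios were tested by exact permutation. On data simulated for 12 h against CTR (16049 genes), 46 of 50 genes raised 2-fold and 38 of 47 lowered to 0.5 were called, and 7 of 15855 unchanged genes. Of genes raised 1.5-fold or lowered to 0.667, 33 of 50 and 30 of 47 were called. Far fewer genes were changed there than in the data, where 36.5% of all tested genes fell and 32.9% rose at 12 h. The simulation therefore does not test the scaling under so many changes. Replicates were compared in 30 pairs and all differed by more than sampling noise.

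The members and gene lists were chosen with earlier results of these data known. All members were named. Of each partner list, the 3 largest called rises and falls at 12 h with a mean of at least 1 CPM were named, with the genes in ratios and 5 cell cycle genes, and the 8 most similar genes. A further gene of this rule is not reported here. Alternatives were library totals, upper quartiles, median-of-ratios factors, DESeq2 1.42.0, other filters, 8 libraries alone, the replicate block, the authors' factors per gene (count over normalized value, for genes never under 20 counts) and leaving out each library. Promoters were matched to RefSeq by symbol. Total counts per library and the spread between wells both set the precision.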

Additional observations from a re-analysis of the deposited data

Results flagged for a closer look

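In EXO1 at 72 h, replicate 1 held 14.6 CPM, apart from the other 3 libraries, of which the nearest was at 17.8 CPM. The gap took up 0.887 of the range of the group, above Dixon's critical value of 0.829 for 4 samples. It was the only such library in 45 groups of 4 (9 genes in 5 groups), and chance gives about 1 in 20 groups.

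The effect of EGF differed between neighbouring times for several members by a direct edgeR test of the difference. It differed for 4 members between 12 h and 24 h, where 27.9% of all tested genes rose and 25.9% fell. It differed for 5 between 24 h and 48 h (25.9% of all genes rose and 24.3% fell). Between 48 h and 72 h it differed for 7 (17.9% of all genes rose and 17.9% fell). These are the tests between neighbouring times given above. In the first of these steps BRCA1 and BRCA2 rose while EXO1 fell.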

How the results depend on the processing

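The counts of members called lower at 12 h and 24 h stayed within 1.5 times of 8 and 6 under every alternative, but the members called changed. At 24 h, FANCD2 and FANCI lost their calls with the authors' factors per gene (adjusted p = 0.137 and 0.0982). BRCA1 and BRCA2 joined at 24 h with library totals (adjusted p = 0.0079 and 0.0217). That scaling moved the median of all tested genes from -0.01 to -0.15 at 24 h. At 48 h, the 1 member lower became 0 with the 8 libraries alone and 2 with the replicate block, and the 1 member higher became 0 with no filter, with the 8 libraries alone or with the authors' factors per gene. With those factors, which could be recovered for 11956 genes, the members lower at 72 h went from 7 to 4 and those lower from 48 h to 72 h from 7 to 4. Members higher from 12 h to 24 h went from 3 to 6 with library totals or upper quartiles and to 5 with a minimum of 10 counts or the 8 libraries alone, and members higher from 24 h to 48 h from 5 to 8 with library totals. The median log2 fold change of all tested genes moved too. From 12 h to 24 h it was 0.04 in the main fit, 0.18 with library totals and 0.16 with upper quartiles. From 24 h to 48 h it was 0.02 in the main fit and 0.17 with library totals. The cause of the changed member counts was not tested. Leaving out 1 library gave 0 to 1 member higher at 24 h, 1 to 3 lower and 0 to 2 higher at 48 h, 2 to 5 higher from 12 h to 24 h (5 without CTR replicate 3), and 0 to 13 of the ratio tests.

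Reversals of direction touched only values that were not called. FANCD2 at 48 h was -0.0020 with DESeq2 and -0.000272 with the 8 libraries alone. With factors per gene, BRCA2 at 48 h was -0.043 and XRCC2 at 48 h -0.028. From 12 h to 24 h, FANCD2 was 0.077 with library totals, 0.051 with upper quartiles and 0.030 with factors per gene, and BLM was 0.065 with library totals and 0.040 with upper quartiles. Leaving out 1 library gave ranges across 0 for FANCD2 (-0.0826 to 0.0845), BRCA2 (-0.0987 to 0.147) and XRCC2 (-0.0757 to 0.117) at 48 h, for XRCC2 at 12 h (-0.186 to 0.00596), for BLM from 12 h to 24 h (-0.181 to 0.00713) and for the log2 ratio BRCA2:PALB2 at 48 h (-0.132 to 0.0428).

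Most same-numbered replicates did not deviate together. Of 40 pairs, 5 had a correlation over 0.1 (range -0.24 to 0.35) and 11 correlated best with their own number. All 5 involved EGF 48 h, and the highest were with CTR, at 0.33 for replicate 2 and 0.35 for replicate 3. The main fit used no pairing. With the replicate block, 8 members were called lower after 12 h. The 24 h, 48 h and 72 h counts under the block were 6, 2 and 8. The lowest count of a member was 94, in BLM at 72 h. How far counting error limits the smaller changes of BLM and XRCC2 was not tested.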
